A study of Mus musculus with 18 samples.

Results

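Hearts of wild type (WT) mice at 1 week and at 1 month of age were compared to describe how the normal mouse heart changed its RNA between these ages. Of the 18 hearts in the series 6 were used, 3 per age, taken by their genotype and age labels, and a gene was tested where every one of these hearts gave it over 5 counts, which held for 12692 of 47069 genes. The series was made to compare *Lmna*-/- mice, which lack a working gene for lamins A and C of the nuclear lamina, with WT mice at 3 ages (1 week, 1 month and, in between, 2 weeks), 3 hearts per genotype and age. All mice were C57BL/6, bred from carriers of the targeted *Lmna* tm1Stw allele, and the WT mice were littermates without that allele, transgene or treatment. Each library came from the RNA of 1 entire heart, so atria, ventricles, valves, blood and attached tissue were read together. Fewer cells of a type and less RNA per cell cannot be told apart in such samples. The labels give neither the sexes nor the days on which hearts were taken and libraries prepared, so age and any difference in preparation cannot be told apart.

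In the days after birth heart muscle cells still divide, and in the following weeks they leave the cell cycle and grow mainly by getting larger. Over the same period the heart turns from glucose and lactate toward fatty acids as fuel, mitochondria fill more of the cell, and fetal isoforms of contractile proteins give way to adult ones. The tubules and channels that couple excitation to calcium release also mature, and the matrix laid down by fibroblasts matures with the growing muscle.

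The libraries held 11643611 to 24049579 counts, of which 5726012 to 10300360 lay on nuclear genes. Levels are given as counts on a fixed nuclear total, corrected by a scaling factor per heart of 0.919 to 1.10 (CPM). Before that factor 3 counts were worth 0.29 to 0.52. The mitochondrial genome, mostly its ribosomal RNA, took 45.8% to 49.7% of the counts at 1 week and 57.6% to 59.5% at 1 month, so that scaling used nuclear genes only (TMM). Replicate hearts correlated at r = 0.981 to 0.990 across genes on the log scale, and the 1st principal component, with 77.2% of the variance, separated the ages. The 2nd component, with 8.3%, set WT replicate 2 of 1 week apart. In that heart the summed level of 21 atrial and conduction genes was 393 CPM against 1833 and 2150 in the other 1-week hearts and 1415 to 2468 at 1 month. Its immediate early genes summed to 1012 CPM, against 458 and 471 in the others of that age. WT replicate 1 of 1 week held more blood RNA, with erythroid genes summing to 9441 CPM against 2624 and 2731 in its companions and 1351 to 1575 at 1 month. *Xist* reads above 5 CPM lay in 1 heart of 1 week and in 2 hearts of 1 month. Lung and liver markers summed to at most 4.59 CPM at 1 week and to 53.1, 5.12 and 29.1 CPM at 1 month, and none of the 16 was tested. All 21 cardiomyocyte markers were tested, with summed levels of 111500.0, 153649 and 107859 CPM at 1 week and 195647, 181027 and 206144 CPM at 1 month. By the test given below 10 of them were higher at 1 month, 4 lower and 7 neither, with a median log2 fold change of 0.35. Of the genes looked up for this text, 14 share over 20% of their exonic bases with another gene model in GENCODE M21, and reads in such ambiguous places were left out of the counts, so that the levels of *Ccnd1*, *Cmya5*, *Mest*, *Ube2c*, *Kcnj3*, *P2ry1*, *Atpif1*, *Art1*, *Sdr39u1*, *Bckdha*, *Igf2*, *Nppa*, *Pln* and *Cpt1b* are less certain than those of other genes.

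From 1 week to 1 month 2976 genes rose and 2930 fell, which is 23.4% and 23.1% of the genes tested (edgeR quasi-likelihood F-test, Benjamini-Hochberg adjusted p under 0.05, which is what "called" means here). Every count of list members below is to be read against these 2 shares. The change was at least 2-fold for 821 of the genes that rose and 775 of those that fell, and at least 8-fold for 27 and 78, so more falls than rises passed that size. For 7073 genes (55.7%) the 3 values of one age lay entirely above the 3 values of the other. With library size alone in place of TMM scaling, the median of all genes moved by −0.19 on the log2 scale and 29.6% instead of 50.4% of the called genes were higher, 1876 against 4458. All directions are therefore relative to the bulk of nuclear genes, and small changes of either sign depend on that choice. A further 839 genes passed 5 counts in every 1-week heart and not in every 1-month heart, and 484 the other way round; these could not be tested by the same rule.

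**Figure D1:**
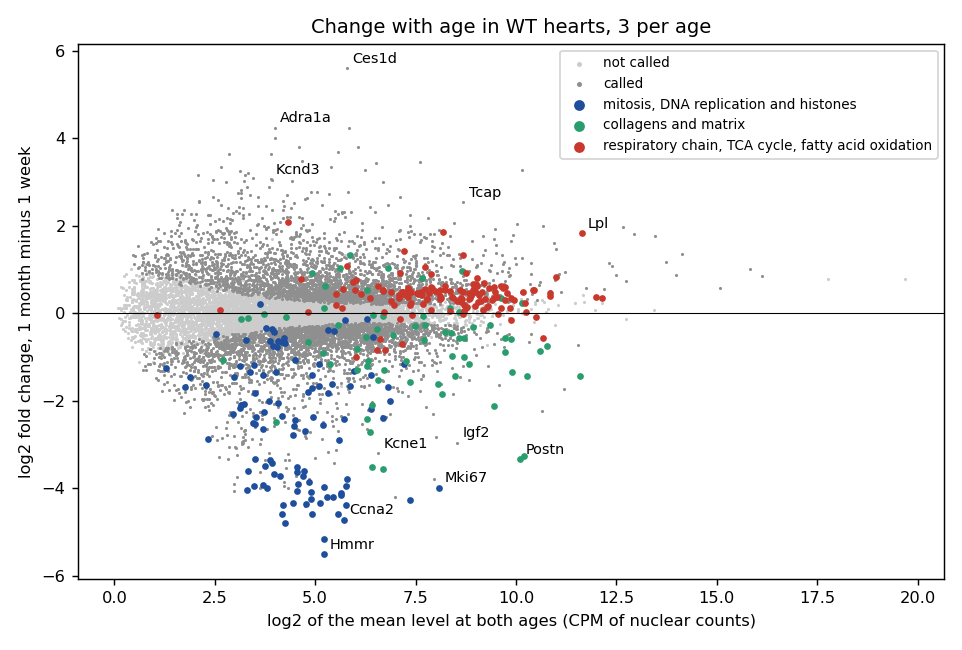
Each point is 1 of 12692 tested genes, with the log2 mean level over both ages (CPM) on the x axis and the log2 fold change of 1 month over 1 week in WT hearts on the y axis; dark grey points were called. Cell division genes (blue) lie between 0.21 and −5.51, most matrix genes (green) lie below 0, and most genes of mitochondrial energy supply (red) lie just above 0.

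Cell division led the falls among the genes that could be tested. Called protein-coding genes were ranked where the ages did not overlap and the mean of the higher age was 10 CPM or more. All of the 10 largest falls among them were in genes of mitosis, DNA synthesis or histones. Of 58 mitosis genes 38 could be tested and all 38 fell, with a median log2 fold change of −3.96, while the median of all tested genes was −0.004. The remaining 20 missed the count filter through their 1-month hearts, and without that filter all 58 were called lower. *Hmmr* (chr11, minus strand), which encodes a spindle-associated hyaluronan receptor, had the largest fall among the genes ranked in this way. It was at 81.9, 57.1 and 80.2 CPM in the 1-week hearts and at 1.02, 3.65 and 0.659 CPM in the 1-month hearts, a log2 fold change of −5.51 ± 0.34 (SE, n = 3 per age, adjusted p = 5.36e-07, edgeR). The lowest 1-week heart lay more than 10-fold above the highest 1-month heart. Cyclin A2 (*Ccna2*), which drives S phase and entry into mitosis, was at 110.2, 84.2 and 109.5 CPM and then at 2.9, 4.39 and 4.18 CPM (−4.71 ± 0.17, adjusted p = 4.01e-08). The mitotic kinase *Cdk1* was at 65.9, 44.3 and 65.7 CPM at 1 week and at 1.19, 3.65 and 2.53 CPM at 1 month (−4.58 ± 0.26, adjusted p = 3.74e-07). For both genes, too, every 1-week heart was more than 10-fold above every 1-month heart. Cyclin B2 (*Ccnb2*), the partner of *Cdk1*, changed by −4.37 ± 0.19, the kinetochore component *Spc25* by −4.58 ± 0.20, *Iqgap3*, a scaffold protein of proliferating cells, by −4.41 ± 0.24, and *Ube2c*, an enzyme that tags mitotic cyclins for destruction, by −4.79 ± 0.26. The proliferation marker *Mki67* was at 561, 453 and 525 CPM at 1 week and still at 18.6, 49 and 30.6 CPM at 1 month, and the topoisomerase *Top2a* was at 352, 260.2 and 331 and 10.9, 23.4 and 15.2 CPM. In both genes WT replicate 2 of 1 month was the highest of its age, as it was for the 7 mitosis genes named before them. Among the genes that could not be tested, *Ccnb1* (cyclin B1) went from 62, 44.9 and 60.4 CPM to 0.853, 1.83 and 1.54 CPM, and *Cdc25c*, the phosphatase that activates *Cdk1*, from 107, 48 and 61 counts to 0 in all 3 hearts of 1 month.

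The promoters of 4 of these genes are shown because members of the list fell together. Each run is the 150 bases directly before the annotated start, 5′ to 3′ on the strand of the gene, from RefSeq (GRCm38.p6), in the order *Hmmr* (chr11:40733438-40733587, minus strand), *Ube2c* (chr2:164769779-164769928, plus strand), *Cdk1* (chr10:69352913-69353062, minus strand) and *Ccnb2* (chr9:70421555-70421704, minus strand). Capitals mark the CCAAT box (CCAAT or its complement ATTGG) and the cell cycle homology region (CHR: TTTGAA or TTTAAA, or a complement), 2 motifs known from promoters of mitotic genes.
Hmmr: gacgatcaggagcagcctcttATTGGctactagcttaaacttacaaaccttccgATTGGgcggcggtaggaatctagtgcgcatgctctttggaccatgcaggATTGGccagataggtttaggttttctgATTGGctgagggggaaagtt
Ube2c: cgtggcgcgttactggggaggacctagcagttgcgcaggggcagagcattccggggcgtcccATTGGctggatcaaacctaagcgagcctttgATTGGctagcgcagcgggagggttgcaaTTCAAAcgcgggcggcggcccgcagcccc
Cdk1: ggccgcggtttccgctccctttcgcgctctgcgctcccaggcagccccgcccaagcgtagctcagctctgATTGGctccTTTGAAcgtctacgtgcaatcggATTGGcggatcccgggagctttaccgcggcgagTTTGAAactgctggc
Ccnb2: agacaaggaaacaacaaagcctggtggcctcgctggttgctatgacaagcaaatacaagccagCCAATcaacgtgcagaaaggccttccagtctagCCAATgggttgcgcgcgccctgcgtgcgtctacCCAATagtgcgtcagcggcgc
The 4 windows hold 4, 2, 2 and 3 CCAAT boxes, and CHR letters occur in those of *Ube2c* (1) and *Cdk1* (2). RefSeq starts were found for 49 of the 58 mitosis genes, 52 starts in all, and 35 of these (67.3%) had at least 1 CCAAT box, against 24.5% of 32851 starts of all genes. At least 2 boxes were in 20 of the 52 (38.5%, against 6.0% of all), and CHR letters in 21 (40.4%, against 14.7%). Both together were in 18 (34.6%, against 3.6%). In the other lists searched, the CCAAT box and CHR letters were in 44.8% and 8.6% of 58 starts of the DNA replication genes, in 21.8% and 10.9% of 55 starts of the matrix genes and in 22.4% and 9.2% of 76 starts of the ribosomal protein genes, 3 lists that were mostly lower, and in 20.6% and 8.8% of 34 starts of complex I, which was higher. These shares describe letters in a window and were not tested.

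Genes of DNA synthesis fell with those of mitosis. Of 55 DNA replication genes 46 were tested, 42 fell and 0 rose, with a median of −1.43. *Rrm2*, a subunit of the enzyme that makes deoxyribonucleotides, was at 113, 86.3 and 111 CPM at 1 week and 4.09, 6.4 and 4.62 CPM at 1 month (−4.37 ± 0.17). The replicative helicase subunit *Mcm5* changed by −2.69 ± 0.13, while *Pcna*, the sliding clamp that also serves DNA repair, was at 95.4, 87.8 and 86.6 CPM and then 34.6, 35.6 and 38.1 CPM (−1.31 ± 0.09). The ages did not overlap for *Pcna*. Of the replication-dependent histones, whose RNA is made in S phase, 23 of 65 were tested and 21 fell (median −2.39). The linker histones *Hist1h1a* (86.1, 52.6 and 80.7 CPM to 1.54, 2.38 and 2.2 CPM) and *Hist1h1b* (108, 72.8 and 94.2 CPM to 2.73, 5.48 and 3.52 CPM) changed by −5.15 ± 0.25 and −4.57 ± 0.21. Histone genes are near-identical and only uniquely mapped reads were kept, so their levels are uncertain. Cell cycle regulators outside these lists were mixed, with 22 of 33 lower and 5 higher (median −0.53). Cyclin D1 (*Ccnd1*), which acts in G1, changed by −0.88 ± 0.15, and the inhibitor *Cdkn1a* was at 24.6, 26 and 28.3 CPM at 1 week and 40.4, 12.4 and 16.6 CPM at 1 month and was not called (adjusted p = 0.653).

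**Figure D2:**
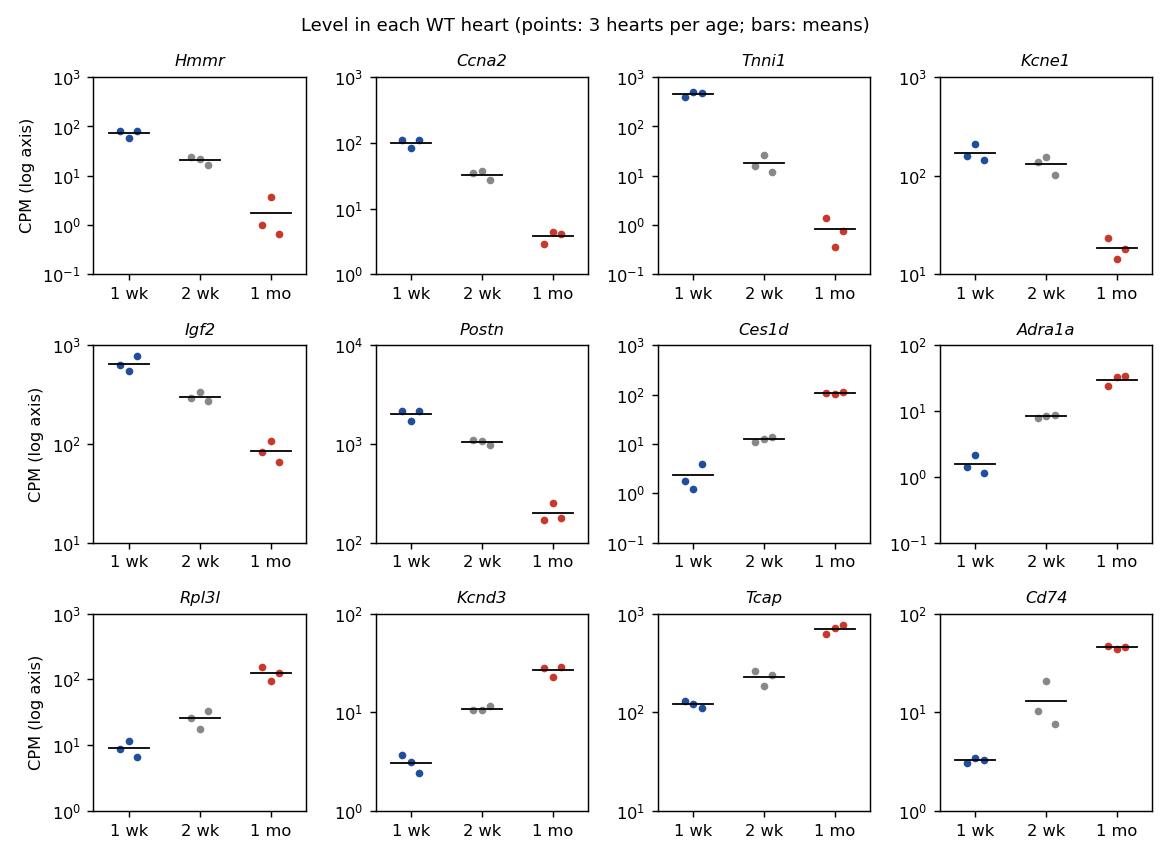
Level of 12 genes in each WT heart (CPM, log axes) by age, with 2 weeks in the middle; points are hearts and bars are means of 3. In all 12 panels the 3 hearts of 1 week and the 3 of 1 month do not overlap, and the 2-week hearts lie between them in all panels but that of Kcne1.

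Genes of fetal growth were also lower. Of 40 imprinted growth genes 33 were tested, 19 fell and 5 rose (median −0.67). *Mest*, a hydrolase-like protein of the growing embryo, was at 255, 235 and 229 CPM at 1 week and at 11.6, 16.8 and 11.3 CPM at 1 month (−4.20 ± 0.14, adjusted p = 2.87e-08, edgeR). *Igf2*, the fetal insulin-like growth factor, was at 635, 550.2 and 779 CPM and then 82.6, 106 and 65.9 CPM (−2.95 ± 0.18, adjusted p = 5.05e-07). The non-coding RNA *H19*, its neighbour, was at 508, 334 and 559 CPM and then 41.3, 31.4 and 29.1 CPM (−3.79 ± 0.20). None of these 3 genes overlapped between the ages, and a 1-week to 1-month drop of the same kind was seen in the zinc finger factor *Plagl1* (−2.52 ± 0.13). Of 18 oncofetal regulators 13 were tested, of which 7 fell and 1 rose. *Sox11*, a transcription factor of embryonic tissues, changed by −3.89 ± 0.27 and *Igf2bp3*, an RNA-binding protein of fetal cells, by −2.81 ± 0.23. The TEAD factors, the DNA-binding partners of the Hippo pathway, went in opposite directions, with *Tead2* at −2.06 ± 0.22 and *Tead1*, the member that rose, at 0.84 ± 0.10. In the IGF axis 11 of 24 genes rose and 8 fell, and *Igf1* itself was lower (187, 161 and 192 CPM to 83.8, 134 and 71.2 CPM, −0.91 ± 0.19).

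Genes of the extracellular matrix were lower as a group. Of 70 collagen and matrix genes 68 were tested, 44 fell and 9 rose, with a median of −0.59. *Fbn2*, the fibrillin of elastic fibres in development, had the smallest p-value of all genes, at 187, 178 and 206 CPM in the 1-week hearts and 17.1, 16.1 and 15.6 CPM in the 1-month hearts (−3.55 ± 0.10, adjusted p = 1.39e-08, edgeR). Periostin (*Postn*), secreted by activated fibroblasts, was at 2165, 1694 and 2171 CPM and then 170.1, 252 and 176 CPM (−3.34 ± 0.17). Both genes had narrow spreads within each age and a gap of several fold between the ages. Fibronectin (*Fn1*) changed by −2.12 ± 0.19, and the fibrillar collagens *Col1a1* and *Col3a1* by −1.35 ± 0.22 and −1.44 ± 0.22. Elastin (*Eln*) was at 2101, 1043 and 3248 CPM at 1 week and at 184, 305 and 179 CPM at 1 month (−3.26 ± 0.36), and its crosslinking enzyme *Lox* at 159, 82.8 and 187 and 24.1, 21.2 and 20.7 CPM. The low 1-week value of *Eln* and *Lox* was in WT replicate 2, the heart with low atrial genes, and without it 68 genes gave 46 lower and 9 higher with a median of −0.70. The part of atrial tissue in these values was not tested. *Col8a1*, a network collagen of vessel and heart walls, went the other way (31.9, 28.6 and 37.6 CPM to 86.7, 86.6 and 76.6 CPM, 1.35 ± 0.11).

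RNA for mitochondrial energy supply was higher at 1 month, by small amounts. Of the nuclear subunits of complex I, the NADH dehydrogenase that opens the respiratory chain, 32 of 36 rose and 0 fell, with a median of 0.47. Complexes II, III, IV and V had 3 of 4, 6 of 9, 9 of 16 and 11 of 17 members higher, with medians of 0.54, 0.43, 0.34 and 0.33. The 3 members that fell were *Cox6a1* (−0.84) and *Cox8a* (−0.58), the forms of 2 cytochrome c oxidase subunits that most tissues use, and *Atpif1*, the inhibitor of ATP synthase (88.6, 85.1 and 84 CPM at 1 week and 41.1, 41.7 and 45.9 CPM at 1 month). With library size alone, 23 of the 36 complex I genes and 2 of the 17 complex V genes were still called higher, and their medians were 0.28 and 0.14. All 10 tested protein genes of the mitochondrial genome rose relative to nuclear genes (median 1.58). Cytochrome b (*mt-Cytb*) was at 9681, 12157 and 8409 CPM at 1 week and 25965, 26249 and 25306 CPM at 1 month (1.36 ± 0.18), and *mt-Nd1* changed by 0.89 ± 0.19. The 3 hearts of each age did not overlap for either gene. Some mitochondrial genes have near-identical nuclear copies, which takes away uniquely mapped reads, so their levels cannot be compared with each other.

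Enzymes that feed the chain rose as well. In the tricarboxylic acid cycle 19 of 23 genes rose and 0 fell (median 0.52). The largest change there was in pyruvate carboxylase (*Pcx*), which refills the cycle, at 9.09, 5.05 and 8.33 CPM in the 1-week hearts and 31.2, 32 and 33.6 CPM in the 1-month hearts (2.09 ± 0.18, adjusted p = 5.51e-06), and *Ogdh* of the cycle itself changed by 0.83 ± 0.12. In fatty acid oxidation 19 of 36 genes rose and 3 fell (median 0.45). Lipoprotein lipase (*Lpl*), which frees fatty acids at the capillary wall, was at 1435, 1589.8 and 1173 CPM and then 5713, 4466 and 4827 CPM (1.84 ± 0.15, adjusted p = 4.1e-06), and the triglyceride lipase *Pnpla2* was at 84.1, 88.2 and 68.5 CPM and then 219.8, 214 and 217 CPM. Neither gene overlapped between ages. *Acacb*, which makes the malonyl-CoA that restrains fatty acid entry into mitochondria, rose by 0.92 ± 0.10 on the log2 scale. The 3 members that fell were the thioesterase *Acot2* (−0.83), the fatty acid binding protein *Fabp3* (−0.56) and *Cpt1a* (−0.70), the liver form of the carnitine transferase that admits fatty acids. The muscle form *Cpt1b* shares 81.4% of its exonic bases with a read-through gene model and was listed at about 2 CPM in every heart, so its level is not interpretable here.

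In the breakdown of ketone bodies and branched-chain amino acids 20 of 23 genes rose and 1 fell, with a median of 1.03. *Ppm1k*, the phosphatase that switches on the branched-chain ketoacid dehydrogenase, was at 75, 63.3 and 75.2 CPM at 1 week and 314, 215 and 256 CPM at 1 month (1.88 ± 0.13). A subunit of that dehydrogenase, *Bckdha*, changed by 1.76 ± 0.11, and the downstream enzymes *Ivd* and *Aldh6a1* by 1.82 ± 0.12 and 1.83 ± 0.13. *Oxct1*, the enzyme that lets the heart burn ketone bodies, was at 525, 397 and 438 CPM and then 1504, 1371 and 1411 CPM (1.65 ± 0.12). *Bdh1*, which oxidises hydroxybutyrate, missed the filter at 19, 3 and 2 counts in the 1-week hearts and was at 13.6, 17.2 and 24.8 CPM at 1 month.

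In glycolysis and glycogen metabolism 15 of 33 genes rose and 4 fell (median 0.23); with library size alone the same list gave 12 higher and 11 lower. The insulin-responsive glucose transporter *Slc2a4* was at 90.1, 102 and 91.7 CPM in the 1-week hearts and 302, 256 and 345 CPM in the 1-month hearts (1.67 ± 0.11). Muscle glycogen phosphorylase (*Pygm*) changed by 1.34 ± 0.11, hexokinase 2 (*Hk2*) by 1.33 ± 0.11, and *Pfkfb1*, a bifunctional enzyme that sets the level of a glycolytic activator, by 2.14 ± 0.26. The kinases that shut pyruvate dehydrogenase were split, with *Pdk2* at 1.27 ± 0.10 and *Pdk3* at −2.18 ± 0.17. *Slc16a3*, the transporter that exports lactate, was at 9.36, 6.82 and 8.61 CPM and then 3.24, 3.84 and 3.74 CPM (−1.20 ± 0.21), and *Eno1*, the ubiquitous enolase, changed by −0.83 ± 0.08.

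Transcriptional regulators of this metabolism were mostly higher, 17 of 26 with 1 lower (median 0.61). *Klf15*, a factor of fasting and lipid use, was at 6.03, 5.73 and 10.3 CPM at 1 week and 41.6, 30 and 29.8 CPM at 1 month (2.22 ± 0.22). The nuclear receptors *Rxrg* and *Ppard* changed by 1.72 ± 0.18 and 1.16 ± 0.15, the estrogen-related receptor *Esrra* by 0.82 ± 0.09, and the muscle co-regulator *Perm1* by 0.98 ± 0.11. *Ppargc1a*, the coactivator best known for mitochondrial biogenesis, was at 164, 252 and 171 CPM and 218, 190.0 and 192 CPM and was not called (0.03 ± 0.15, adjusted p = 0.874). The ages overlapped for this gene, with WT replicate 2 of 1 week the highest of all 6 hearts. Targets of thyroid hormone and glucocorticoids, whose blood levels rise in the weeks after birth in mice, had 16 of 24 members higher and 2 lower (median 1.20). *Thrsp*, a thyroid-induced regulator of lipid synthesis, was at 2.52, 1.64 and 2.3 CPM and then 13.1, 14.1 and 16.7 CPM (2.74 ± 0.21), and *Zbtb16*, a glucocorticoid-induced repressor, at 11.4, 8.59 and 11.5 CPM and then 86.5, 53.9 and 70.6 CPM (2.74 ± 0.18). The thyroid hormone receptor *Thrb* changed by 2.05 ± 0.17, its corepressor *Hr* by 2.03 ± 0.15, and *Klf9* by 1.68 ± 0.15. Of the circadian genes 8 of 18 were higher and 3 lower, and *Nr1d1*, the REV-ERB repressor of the clock, was at 14.2, 16.2 and 12.6 CPM and 81.9, 119.9 and 95.4 CPM (2.78 ± 0.15). The labels do not give the hour of dissection.

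Sarcomere genes were higher in part, 23 of 44 with 4 lower (median 0.39). Telethonin (*Tcap*), which caps titin at the Z-disc, was at 131, 122 and 109.8 CPM at 1 week and 625, 709.9 and 775 CPM at 1 month (2.54 ± 0.11, adjusted p = 9.48e-08). *Cmya5* (myospryn) changed by 2.00 ± 0.14 and *Xirp2*, an actin-binding repeat protein of the intercalated disc, by 1.80 ± 0.14. Among the members that fell were the slow myosin heavy chain *Myh7*, at 154, 179 and 264 CPM and then 78.7, 64 and 100.4 CPM (−1.29 ± 0.20, adjusted p = 0.00037), and slow skeletal troponin T (*Tnnt1*, −1.11 ± 0.19). *Myh6*, the adult fast myosin of the mouse heart, was at 25741, 32076 and 25790.0 CPM and then 42808, 38470.3 and 43462 CPM (0.58 ± 0.20, adjusted p = 0.0316); its call was lost in 7 of 19 alternatives, among them the fits without WT replicates 1 or 3 of either age. The fetal troponin I, *Tnni1*, could not be tested because WT replicate 2 of 1 month had 2 counts. It was at 403, 506 and 487 CPM in the 1-week hearts and at 1.36, 0.365 and 0.769 CPM in the 1-month hearts, with 8, 2 and 7 counts in the latter.

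For 20 pairs of related genes the ratio of the levels per kilobase of exon (RPKM) was taken in each heart, a scale that corrects for length. The length joins all annotated exons of a gene and not those of the transcript in use. Ratios at a given age are therefore approximate, while their change with age does not depend on the length. The ratio of adult *Tnni3* to fetal *Tnni1* was 6.67, 6.11 and 5.61 at 1 week and 4478, 12986 and 7139.7 at 1 month. The latter rest on the few *Tnni1* counts above, with 95% intervals (exact Poisson, counting error only) of 2273 to 10370.0, 3595 to 107200.0 and 3465 to 17760.0. *Myh6* to *Myh7* had ratios of 214, 229 and 125 and then 697, 771 and 554. In both pairs the adult form was already the more abundant at 1 week and its share grew. *Rpl3l*, the muscle form of ribosomal protein L3, stood to *Rpl3* at 0.0363 ± 0.0116 (mean ± SD, n = 3) at 1 week and 1.22 ± 0.382 at 1 month, and the muscle elongation factor *Eef1a2* to *Eef1a1* at 0.106 ± 0.0108 and 0.966 ± 0.167. Per kilobase, the muscle forms of 2 parts of the translation machinery thus went from a small fraction to about the level of the ubiquitous ones. Without the length correction the 1-month means were 125 CPM for *Rpl3l* against 202 CPM for *Rpl3*. Those of *Eef1a2* and *Eef1a1* were 878 and 1102 CPM. Near-identical pseudogene copies of ribosomal protein genes and *Eef1a1* make these ratios uncertain. The heart and muscle forms of cytochrome c oxidase subunits rose against the ubiquitous ones in 3 pairs, *Cox6a2* to *Cox6a1* from 2 ± 0.098 to 9.14 ± 1.55, *Cox7a1* to *Cox7a2* from 0.688 ± 0.0779 to 2.44 ± 0.139 and *Cox8b* to *Cox8a* from 2.01 ± 0.477 to 6.25 ± 1.09. Ratios were also higher at 1 month for *Slc2a4* to *Slc2a1* (12.4 ± 4.5 to 30.5 ± 3.38), *Hk2* to *Hk1* (0.994 ± 0.172 to 2.56 ± 0.115), *Ldhb* to *Ldha* (1.84 ± 0.0964 to 3.75 ± 0.229), *Ckm* to *Ckb* (9.6 ± 2.17 to 23 ± 0.742) and the ADP/ATP carriers *Slc25a4* to *Slc25a5* (4.2 ± 0.305 to 10.1 ± 0.696). Cardiac to skeletal actin went the other way, with *Actc1* to *Acta1* at 106, 217 and 134 at 1 week and 72.4, 41.9 and 53.8 at 1 month. The skeletal form *Acta1* rose (1.46 ± 0.21) and *Actc1* was not called (adjusted p = 0.726). The T-type calcium channels were the other pair whose ratio was lower without overlap, *Cacna1g* to *Cacna1h* at 2.5 ± 0.764 and then 1.42 ± 0.294. The ratios of the 2 ages did not overlap in 17 of the 20 pairs. An exact permutation test of 3 against 3 reaches a p of 0.1 at the lowest. Of all tested genes taken singly 55.7% did not overlap, and no such share was taken for ratios of other pairs. The pairs were chosen with earlier results of these data known. The pacemaker channel, glycogen phosphorylase and calsequestrin pairs overlapped. The 17 include *Cpt1b* to *Cpt1a*, which is uncertain for the shared exons named above.

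Calcium handling genes were higher in 14 of 28 and lower in 3 (median 0.43). The pump that refills the sarcoplasmic reticulum, *Atp2a2* (SERCA2), was at 7473, 9859.8 and 7687 CPM at 1 week and 20398, 17200.5 and 19221 CPM at 1 month (1.18 ± 0.17, adjusted p = 0.000228), and the release channel *Ryr2* at 2915, 4399.8 and 2982 CPM and then 7425, 6755 and 7581 CPM (1.08 ± 0.17). Phospholamban (*Pln*), the brake on the pump, changed by 0.88 ± 0.20, the calcium-binding protein *Hrc* by 1.70 ± 0.13, and the calcium channel subunit *Cacna2d1* by 1.23 ± 0.09. The sodium-calcium exchanger *Slc8a1*, which carries calcium out of the cell, went down instead, from 1065, 1006 and 1050.1 CPM to 651, 580.0 and 607 CPM (−0.76 ± 0.09). For all 6 of these genes the ages did not overlap. The calsequestrin *Casq2*, the calcium store of the reticulum, was at 1327, 1338 and 1208 CPM and 1466, 1399 and 1298 CPM and was not called (adjusted p = 0.426).

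Ion channel genes had 19 of 36 members higher and 5 lower (median 0.53). The subunits of the transient outward current, which repolarises heart muscle cells of mice early in the action potential, rose together. *Kcnd3* was at 3.69, 3.14 and 2.44 CPM at 1 week and 28.2, 23 and 28.7 CPM at 1 month (3.08 ± 0.18, adjusted p = 4.52e-07), *Kcnd2* at 16, 21.7 and 11.2 and 72.3, 70 and 80.7 CPM (2.19 ± 0.18), and their partner *Kcnip2* at 52.3, 83.1 and 53 and 167, 157 and 180.5 CPM (1.43 ± 0.16). *Kcna4*, the channel behind the slow outward current of immature cells, was lower (−1.05 ± 0.17). *Kcne1*, the regulatory subunit of the slow delayed rectifier, had the largest fall of the list, from 159, 208 and 144 CPM to 23.4, 14.3 and 18.2 CPM (−3.19 ± 0.18, adjusted p = 3.33e-07). The skeletal muscle sodium channel *Scn4a* was higher as well (2.61 ± 0.25). Untested for want of counts at 1 week, *Scn4b* had 8, 2 and 1 counts there and 5.97, 15.7 and 14.6 CPM at 1 month, and *Kcnv2* had 6, 0 and 7 counts and 13.3, 8.95 and 11.8 CPM. *Kcnj3*, a channel of atrial cells opened by acetylcholine, changed by 1.54 ± 0.26 with a low value of 30.3 CPM in WT replicate 2 of 1 week, the heart with low atrial genes.

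Receptor genes changed unevenly. In adrenergic and muscarinic signalling 11 of 26 rose and 6 fell (median 0.39). The alpha-1A adrenoceptor *Adra1a* (chr14:66635251-66771168, GRCm38, plus strand) was at 1.44, 2.18 and 1.15 CPM in the 1-week hearts and 24.4, 32.5 and 33.6 CPM in the 1-month hearts, a change of 4.25 ± 0.23 (adjusted p = 2.69e-07, edgeR). The muscarinic receptor of the vagal input, *Chrm2*, was at 135, 123 and 132 and 427, 356 and 327 CPM (1.51 ± 0.11). The beta-1 adrenoceptor *Adrb1* was at 12.5, 17.3 and 18.5 CPM and 23, 16.1 and 24.2 CPM, with overlap between the ages, and was not called (adjusted p = 0.0932). At the intercalated disc and costamere 16 of 34 rose and 8 fell (median 0.17), and the sign of this median turned with library size alone (−0.02). Desmoplakin (*Dsp*), the anchor of desmosomes, changed by 0.76 ± 0.12, alpha-sarcoglycan (*Sgca*) by 1.37 ± 0.08, and integrin alpha 7 (*Itga7*) by 1.16 ± 0.11, while the gap junction gene *Gja1* was at 714, 946 and 837 CPM and 786, 841 and 813 CPM and was not called (adjusted p = 0.834).

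**Figure D3:**
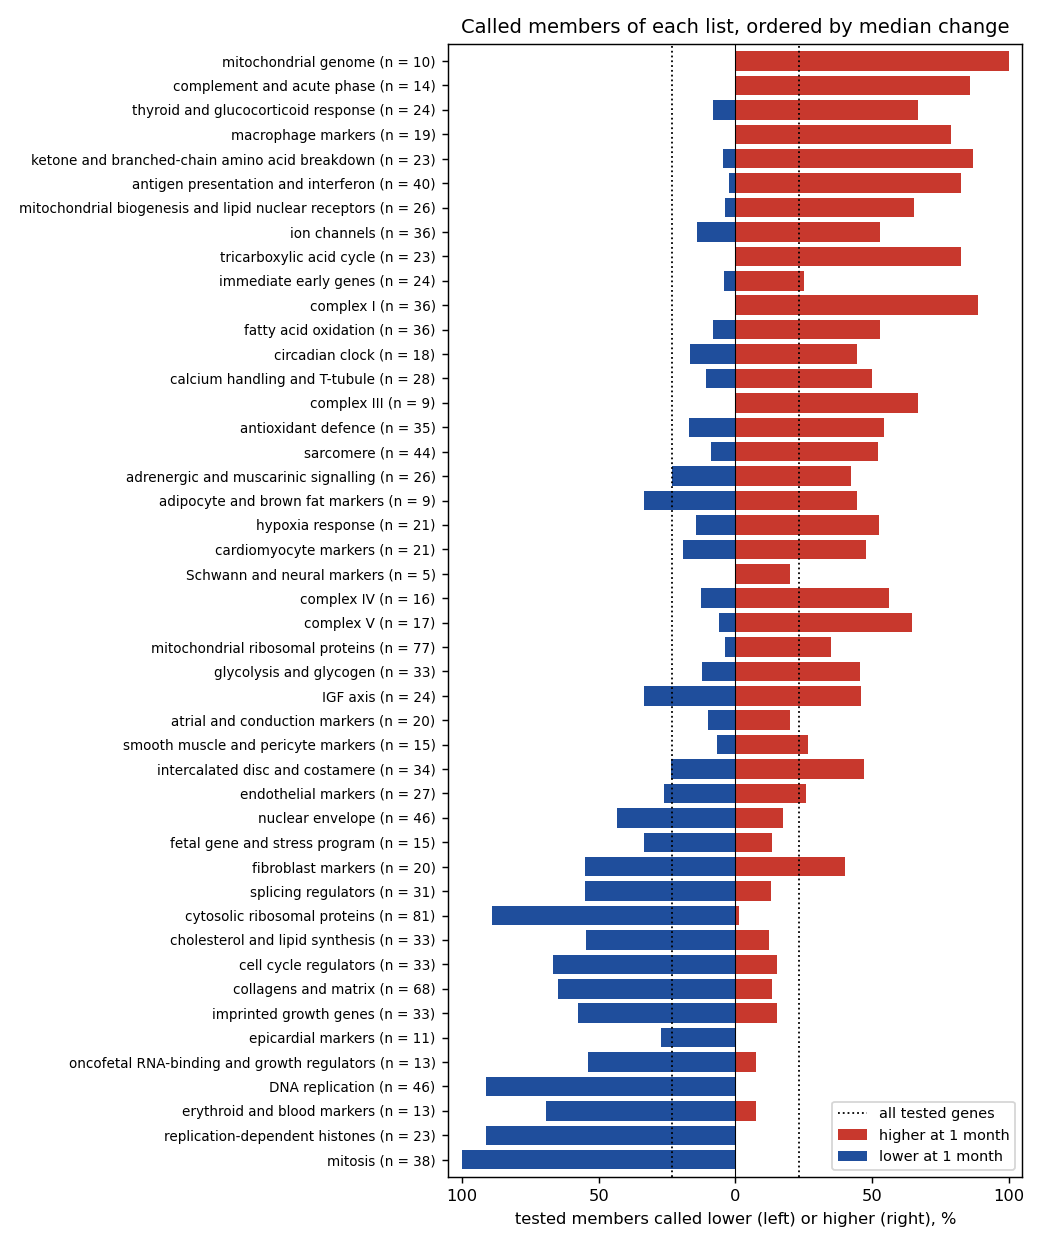
Percent of the tested members of each list that were called higher (red, right) or lower (blue, left) at 1 month, lists ordered by their median log2 fold change; the dotted lines mark the shares over all tested genes, 23.4% higher and 23.1% lower. Mitosis has 38 of 38 members lower and complex I 32 of 36 higher.

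Genes of antigen presentation and the interferon response rose, 33 of 40 tested with 1 lower (median 0.98). *Cd74*, the chaperone of MHC class II molecules, was at 3.06, 3.41 and 3.3 CPM at 1 week and at 46.6, 43.5 and 46.3 CPM at 1 month (3.81 ± 0.13, adjusted p = 3.38e-08). The class II chains *H2-Eb1* and *H2-Aa* were at 1.71, 1.5 and 1.72 and 3.06, 1.77 and 1.87 CPM at 1 week and at 16.7, 16.3 and 14.7 and 21.3, 17.2 and 20.9 CPM at 1 month. *Cd74* and *H2-Eb1* had little spread within either age, while *H2-Aa* ranged from 1.77 to 3.06 CPM at 1 week. The class II chain *H2-Ab1* was not tested, with 22, 4 and 20 counts at 1 week. Of the interferon-induced genes, *Oas2* changed by 3.16 ± 0.28 and *Ifit3* by 2.75 ± 0.23, and the member that fell was the factor *Irf8* (−0.57 ± 0.17, a call lost in 4 of 19 alternatives, among them the fits without WT replicate 1 of 1 week and WT replicate 3 of 1 month). Complement and acute phase genes had 12 of 14 members higher and 0 lower (median 1.41). Macrophage markers, which share genes with these lists, had 15 of 19 higher and 0 lower, with summed levels of 301, 233 and 249 CPM at 1 week and 627, 714 and 577 CPM at 1 month. The scavenger receptor *Cd163* of resident macrophages was at 8.82, 3.55 and 7.18 and 36, 38 and 33.6 CPM (2.42 ± 0.23). Markers of lymphocytes summed to 13.2, 13.8 and 13.1 CPM and 16.7, 27.6 and 20.6 CPM and only 1 of 25 could be tested. The part of cell numbers in these changes was not tested.

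Other cell types were described by their marker lists. Fibroblast markers summed to 13070.3, 10426 and 14565 CPM at 1 week and 7546, 9054 and 6653 CPM at 1 month, with 8 of 20 higher and 11 lower, so this list moved both ways. Gelsolin (*Gsn*), an actin-severing protein that fibroblasts make in quantity, was at 198, 189.7 and 245 CPM and then 2289, 2075 and 1831 CPM (3.29 ± 0.14), while *Postn* of the same list fell. Endothelial markers summed to 3587, 3957 and 3256 CPM and 3662, 3664 and 3522 CPM, with 7 of 27 higher and 7 lower, and their median of 0.09 turned to −0.10 with library size alone. Smooth muscle and pericyte markers had 4 of 15 higher and 1 lower, and epicardial markers 0 higher and 3 of 11 lower. Erythroid markers had 9 of 13 lower and 1 higher (median −1.78); without WT replicate 1 of 1 week, the heart with the most blood RNA, 7 were lower and the median was −0.85. The atrial natriuretic peptide *Nppa* was at 252, 20.6 and 279 CPM at 1 week and 341, 403 and 271 CPM at 1 month and was not called (adjusted p = 0.257), with the low value in WT replicate 2 of 1 week. Of 15 genes of the fetal and stress program 2 rose and 5 fell. Schwann cell and neural markers had 1 of 5 higher and thymocyte markers 1 of 2 lower. Of 20 skeletal muscle markers 17 were not tested. The 2 of 3 that were higher were *Acta1* and *Ckm*, and *Ckm* is also among the cardiomyocyte markers. They are therefore not read as skeletal muscle RNA. Atrial and conduction genes had 4 of 20 higher and 2 lower, and 4 and 6 without WT replicate 2 of 1 week. Adipocyte and brown fat markers had 4 of 9 higher and 3 lower, with 8 not tested, and *Ucp1*, which defines brown fat, varied between hearts at 29.6, 0.818 and 17.9 CPM at 1 week and 2.05, 7.49 and 13.3 CPM at 1 month without a call (adjusted p = 0.282). Among untested fat genes, *Cfd* had 4, 0 and 0 counts at 1 week and 44, 67 and 53 at 1 month. *Adipoq* was at 2.61, 0.136 and 1.58 and then 1.71, 5.66 and 3.41 CPM, with overlap. *Elovl3* went from 6, 0 and 1 to 0, 0 and 1 counts. The part of fat tissue in these values was not tested.

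Genes of the cytosolic ribosome and of splicing were mostly lower. Of 84 cytosolic ribosomal protein genes 81 were tested, 72 fell and 1 rose, with a median of −0.41. *Rpl3* was at 487, 465 and 493 CPM at 1 week and 191, 228 and 188 CPM at 1 month (−1.25 ± 0.10), and the member that rose was its muscle form *Rpl3l*, at 8.64, 11.7 and 6.6 CPM and then 155, 95.2 and 125 CPM (3.79 ± 0.21). *Eef1a1* changed by −1.72 ± 0.13 and the muscle form *Eef1a2* by 1.45 ± 0.09, from 308, 334 and 319 to 901, 819.7 and 912 CPM. Ribosomal protein genes and *Eef1a1* have many near-identical pseudogene copies, which makes their levels uncertain. In the mitochondrial ribosome 27 of 77 genes rose and 3 fell. Splicing regulators had 17 of 31 lower and 4 higher (median −0.38). *Rbm3*, an RNA-binding protein induced by cold, was at 136, 137 and 140.1 and 28.3, 36.7 and 35.8 CPM (−2.03 ± 0.10), *Mbnl3* of the muscleblind family changed by −2.26 ± 0.21, and *Rbfox1*, a splicing factor of mature muscle and neurons, was the opposite case (1.03 ± 0.15).

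Of 46 nuclear envelope genes 20 fell and 8 rose (median −0.20). Lamin B1 (*Lmnb1*), the B-type lamin linked to proliferating cells, was at 71.1, 60.8 and 85.8 CPM at 1 week and 6.48, 8.77 and 8.79 CPM at 1 month (−3.16 ± 0.16, adjusted p = 2.31e-07), lamin B2 (*Lmnb2*) changed by −1.17 ± 0.16, and *Tmpo*, which encodes the lamina-associated polypeptide 2 proteins, by −1.70 ± 0.08. *Lmna*, the gene deleted in the other arm of the series, was at 118, 123 and 127 CPM and 99.98, 109 and 108 CPM, a change of −0.22 ± 0.08 (adjusted p = 0.0424). That call was lost in 13 of 19 alternatives, among them leaving out any 1 of the 6 hearts, and its size was far below that of *Lmnb1*. *Sun2*, which links the lamina to the cytoskeleton, changed by 0.62 ± 0.10 and *Tmem38a*, a potassium channel of the nuclear envelope and sarcoplasmic reticulum, by 0.88 ± 0.09.

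In cholesterol and lipid synthesis 18 of 33 genes fell and 4 rose (median −0.50). The sterol enzymes *Idi1* and *Sqle* changed by −1.96 ± 0.38 and −1.78 ± 0.19. The stearoyl-CoA desaturases, which make monounsaturated fatty acids, went in opposite directions, with *Scd2* at 239, 188 and 243 CPM at 1 week and 63.3, 63.6 and 65.1 CPM at 1 month (−1.80 ± 0.11) and *Scd1* at 22.4, 9.82 and 12.9 CPM and 116, 171 and 216 CPM (3.44 ± 0.28). At 1 week *Scd2* was the higher of the pair in each heart and at 1 month *Scd1*, on the CPM scale, which does not correct for length. *Dgat2*, the last enzyme of triglyceride synthesis, changed by 1.87 ± 0.10. Of 35 tested antioxidant genes 19 rose and 6 fell, with the glutathione transferases *Gstk1* (2.65 ± 0.21) and *Gstm1* (2.44 ± 0.11) changed most. Hypoxia response genes had 11 of 21 higher and 3 lower, and immediate early genes 6 of 24 higher and 1 lower, the latter with WT replicate 2 of 1 week above its companions.

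Among the protein-coding genes ranked by the rule used for the falls, the largest rise was in *Ces1d* (chr8:93166068-93197838, GRCm38, minus strand), a carboxylesterase that hydrolyses triglycerides. It was at 1.8, 1.23 and 3.88 CPM in the 1-week hearts and 109, 103 and 114 CPM in the 1-month hearts (48.7-fold, 5.60 ± 0.22, adjusted p = 6.84e-08, edgeR). *Art1*, an ADP-ribosyltransferase of the muscle cell surface, was at 6.48, 6.14 and 4.45 CPM and then 99, 102 and 124 CPM (4.23 ± 0.15), and *Xdh*, which makes uric acid, at 9.27, 4.77 and 5.45 CPM and then 98.8, 89.5 and 75.5 CPM (3.70 ± 0.20). In each of the 3 genes the lowest 1-month heart was at least 8 times the highest 1-week heart. *Hrasls*, an enzyme of phospholipid remodelling, changed by 3.64 ± 0.20, and *Ms4a4d*, of a family of membrane proteins, by 3.64 ± 0.25. The genes *F830016B08Rik* and *2310002L09Rik*, named here by clone identifiers, changed by 4.01 ± 0.40 and 3.49 ± 0.26, with 1 heart of 1 month well above the others in each (20.1, 47.9 and 22.5 CPM and 65.2, 34.5 and 40.1 CPM).

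WT hearts of 2 weeks were set beside both ages as values. Their libraries stood apart, with 68.2% to 70.4% of counts on the mitochondrial genome. The mitochondrial gene *mt-Nd3* was at 53.5, 53 and 59.1 CPM at 2 weeks, against at most 0.955 CPM at 1 week and 4.27 CPM at 1 month. WT replicate 2 of 2 weeks also carried thymus RNA (thymocyte markers at 358 CPM against 9.94 and 7.53). The 2-week hearts are therefore not read as a step of a time course. Over the 1596 called genes with at least a 2-fold change, the median difference of 2 weeks from 1 week was 50.3% of the log2 change to 1 month, 53.5% for genes that rose and 46.7% for those that fell. *Ccna2* was at 34.5, 37 and 27.4 CPM at 2 weeks and *Kcnd3* at 10.5, 10.4 and 11.7 CPM, both between the other ages. *Tnni1* was at 15.5, 26.1 and 12 CPM, against a mean of 465 at 1 week, while *Kcne1* was at 139, 154 and 103 CPM, against 23.4 CPM at most at 1 month. *Lpl* (1563, 1529 and 1595 CPM), *Ppm1k* (91.4, 77.2 and 98.7 CPM) and *Pcx* (5.57, 6.26 and 7.21 CPM) were nearer to their 1-week than to their 1-month levels. By contrast *Cox6a2* (896, 829 and 791 CPM) and *Cox7a1* (516, 421 and 507 CPM) lay within or above the range of their 1-month levels. Genes called between 1 week and 1 month thus differed in where their 2-week values lay.

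To see whether hearts without lamin A/C changed alike, the change from 1 week to 1 month was compared between WT and *Lmna*-/- hearts in 1 model of 12 hearts. *Lmna*-/- replicate 1 of 1 week had 3486510 nuclear counts, the fewest of the 12. The mitochondrial genome took 62.7% of its counts, against 43.7% and 49.7% in its companions. In the libraries labelled *Lmna*-/- the targeted gene was at 25.1, 36.3 and 71.6 CPM at 1 week and 34.4, 30.5 and 30 CPM at 1 month, against 99.98 to 127 CPM in the WT hearts. Replicate 3 of 1 week kept a higher level than its companions, and the counts span all exons, those outside the deletion included. Of 12139 genes tested, 6 (0.0494%) were called for a change that differed between the genotypes, and 1582 had an unadjusted p under 0.05. With 3 hearts per group, a gene without a call is not shown to change alike in both genotypes. DESeq2 called 102 and 1 fit over all 18 hearts called 80, and each of these held the 6. With the replicate block 1 gene was called, and with a covariate for hearts with *Xist* reads 0 (1342 at an unadjusted p under 0.05). None of the *Lmna*-/- hearts of either age had *Xist* reads above 5 CPM, against 1 and 2 of the 3 WT hearts of each age, so genotype and these reads were partly confounded. *Myh7* was lower at 1 month in WT hearts and higher in *Lmna*-/- hearts, where it was at 84.1, 93.1 and 182 CPM at 1 week and 3268, 570.5 and 963 CPM at 1 month. Its log2 fold changes with age were −1.29 and 3.74, a difference of −5.02 ± 0.73 (SE, adjusted p = 0.0301, edgeR). *Ces1d* was at 8.36, 20.2 and 8.66 and 47.8, 41.2 and 73 CPM in the *Lmna*-/- hearts, a change of 2.00 against 5.60 in WT (difference 3.61 ± 0.51, adjusted p = 0.0301). The *Lmna*-/- hearts were thus higher in *Ces1d* at 1 week and lower at 1 month than the WT hearts, with no overlap at either age. *P2ry1*, a receptor for ADP, was at 7.11, 6.82 and 7.18 and 38.7, 26.9 and 31.3 CPM in WT hearts and at 10.8, 8.89 and 9.81 and 15.5, 13.7 and 12.6 CPM in *Lmna*-/- hearts (difference 1.66 ± 0.23). The adaptor *Apba3*, the reductase-like *Sdr39u1* and the Hsp90 co-chaperone *Fkbp4* rose in WT hearts (1.14, 1.03 and 0.97) and had changes of −0.03, 0.11 and 0.07 in *Lmna*-/- hearts. The number of calls fell to 0 without WT replicate 1 or 3 of 1 week, WT replicate 1 or 3 of 1 month or *Lmna*-/- replicate 3 of 1 month, and was 1 without WT replicate 2 of 1 week, 9 without WT replicate 2 of 1 month, 14, 4 and 3 without *Lmna*-/- replicates 1, 2 and 3 of 1 week and 2 and 10 without *Lmna*-/- replicates 1 and 2 of 1 month. The 1 call without WT replicate 2 of 1 week was not among the 6. The 9 calls held 4 of the 6, without *Myh7* and *Apba3*. *Myh7* was also not called with the replicate block, where the 1 call was *P2ry1*, or without *Lmna*-/- replicate 2 of 1 week. *Cdk1* and *Hmmr*, which the filter kept out of this model, were at 23.2, 56.5 and 85.4 and 30.7, 67 and 124 CPM in the *Lmna*-/- hearts of 1 week and 1.04, 2.35 and 0.888 and 0.691, 2.35 and 0.533 CPM in those of 1 month.

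**Figure D4:**
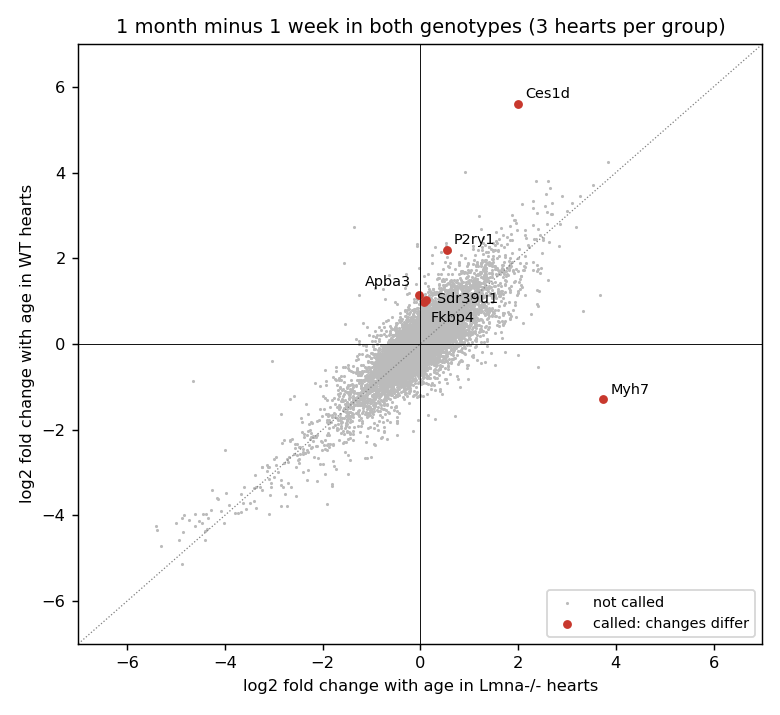
Log2 fold change from 1 week to 1 month in Lmna-/- hearts (x axis) and in WT hearts (y axis) for 12139 genes, 3 hearts per group; red points are the 6 genes whose changes differed, and the dotted line marks equal changes. Myh7 lies at 3.74 and −1.29 and Ces1d at 2.00 and 5.60. The axes share no samples.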

How the data were processed

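RNA of entire hearts was sequenced after removal of ribosomal RNA, with 1 stranded library per heart. The authors aligned the reads with STAR (the submitters' processing notes name version 2.3.1d and build mm10) with default settings. Per gene, they then tallied uniquely placed pairs contained in exons of any of its transcripts, and dropped stretches claimed by several genes. The deposited tables hold the authors' raw read counts without normalization, 1 table per age with 47069 genes in 6 hearts. The annotation, and whether counting used strand, are not given in the sources used here. Symbols and positions came from GENCODE M21 (GRCm38, 98.9% of identifiers).

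The tables of 1 week and 1 month were joined by identifier. Genes over 5 counts in every one of 6 WT hearts were scaled by TMM on nuclear counts and compared with edgeR 4.0.16 in R 4.3.3 (quasi-likelihood F-test, Benjamini-Hochberg over all genes tested, threshold 0.05). P-values measure the change against the spread between hearts of an age, and replicates differed beyond counting noise (chi-square per degree of freedom 6.18 to 16.7). The labels give no litters or days, so any spread between these is not known to be covered. The difference between the genotypes was the interaction of age and genotype over 12 hearts. DESeq2 1.42.0, other scalings, filters and models, a GC correction and the loss of each heart were alternatives. The scripts were tested on simulated data. CPM are counts on a fixed nuclear total corrected by the TMM factor of each heart, and RPKM are CPM per kilobase of exon. The level worth 3 counts is given before that factor and covers counting error only. Genes named are the 10 largest rises and falls among called protein-coding genes at 10 CPM or more whose ages did not overlap. Pairs of isoforms, up to 5 called rises and falls of each list at 5 CPM or more with examples not called, *Lmna*, and called interactions were added. The other genes named were chosen after their values were seen. The comparison, the lists and the named genes were chosen with earlier results of these data known. Promoters are from RefSeq (GRCm38.p6). Some genes that these rules name are not reported here.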

Additional observations from a re-analysis of the deposited data

Results flagged for a closer look

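The 6 genes whose change with age differed between WT and *Lmna*-/- hearts by the test of that difference were set apart for a closer look. Values are the log2 fold change from 1 week to 1 month in WT hearts minus that in *Lmna*-/- hearts. They were −5.02 for *Myh7*, 3.61 for *Ces1d*, 1.66 for *P2ry1*, 1.17 for *Apba3*, 0.92 for *Sdr39u1* and 0.90 for *Fkbp4*, with adjusted p-values of 0.0301 to 0.0406 (edgeR). In *Myh7* the library labelled *Lmna*-/- replicate 1 of 1 month was at 3268 CPM and the other 2 at 570.5 and 963 CPM. The 6 differences kept their sign in every alternative run, while the calls fell to 0 in the fits without WT replicate 1 or 3 of either age or *Lmna*-/- replicate 3 of 1 month. With a covariate for hearts with *Xist* reads edgeR called 0 genes (1342 at an unadjusted p under 0.05).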

How the results depend on the processing

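The total of 5906 called genes stayed within 1.5 times in all alternatives but the demand for a 2-fold change, which left 1596 (821 higher, 775 lower). Leaving out 1 heart at a time gave 4615 to 5980 calls, DESeq2 5106, and an adjusted p under 0.01 gave 4074; of the 5906, DESeq2 called 5073, all in the same direction. Library size alone changed the split, to 1876 higher and 4458 lower. Same-numbered hearts did not deviate together (r = 0.03, −0.09 and −0.07), so the numbers give no pairing; the replicate block gave 5432 calls (2759 higher, 2673 lower), and 1 call of a difference between genotypes. That second count, 6, was the least stable, at 80 in 1 fit over 18 hearts, 102 with DESeq2, 0 with the covariate for *Xist* reads, and 0 to 14 when 1 heart was left out; the cause was not tested. Of 154 named genes with a call, 144 kept it wherever they were tested in 19 alternatives that leave the thresholds as they are, and 0 changed sign. Some of the 144 were not tested in every alternative (2906 tests over the 154 genes). Calls were lost most often for *Lmna* (13 alternatives), *Pgam2* (11) and *Hcn4* (10). Depth limits genes near 0 at one age, since 3 counts are 0.29 to 0.52 CPM before the TMM factors.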
